A study of Mus musculus with 6 samples.

Results

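The cytochrome P450 (Cyp) genes were examined in inguinal white adipose tissue, the fat pad of the groin, of mice whose adipocytes lacked Foxp4, a forkhead transcription factor. Members were all genes of the deposited table whose symbol is Cyp followed by a digit, with Cyp51 of cholesterol synthesis left aside. This gave 99 of 21900 distinct genes. The 3 control samples came from Foxp4fl/fl mice. The 3 knockout samples came from Foxp4AdipoQΔ/Δ mice, in which a Cre recombinase driven by the adiponectin promoter, active in mature adipocytes, deletes the floxed gene. Both groups were C57BL/6 mice aged 2 months, raised at 22 °C on chow and then held at 4 °C for 7 days, so no sample shows fat without cold. The labels name no Cre in the controls, so the effects of Cre and of the loss of Foxp4 cannot be told apart. They do not say whether a sample was 1 mouse or a pool, so the tests measure only the spread between these samples.

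P450 enzymes hold a heme group that splits molecular oxygen and puts one of its atoms into a lipid, steroid, vitamin or foreign compound. Most sit in the endoplasmic reticulum and take electrons from P450 oxidoreductase (Por) or cytochrome b5, while a few sit in mitochondria and use ferredoxin (Fdx1) and ferredoxin reductase (Fdxr). The liver holds the widest range of these enzymes. In fat the best known is Cyp2e1, which oxidises ethanol, acetone and fatty acids and is abundant in adipocytes.

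Values are FPKM, that is, reads scaled to exon length and library size, which allows levels to be compared between genes. The 6 libraries held 13182255 to 16001141 recovered reads on annotated genes, and 10405 to 10902 genes per library reached 1 FPKM. Foxp4 stood at 5.76, 4.01 and 4.62 FPKM in the controls against 1.92, 1.71 and 1.64 FPKM in the knockouts, without overlap (log2 difference -1.06, adjusted p = 0.070 in limma). The adipocyte genes Adipoq, Plin1 and Fabp4 were abundant in every library. Among the 5 hepatocyte markers, albumin (Alb) was at 27.9 to 62.0 FPKM, Serpina1a at 0.224 to 0.969 FPKM in controls and 0.685 to 2.30 FPKM in knockouts (unadjusted p = 0.0585), and Apoa1, Ttr and Fga at or below 0.345 FPKM in each library.

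Few P450 genes were expressed in this tissue. Of the 99 members, 51 were listed at 0 in every library and 28 more had some reads but a mean below 1 FPKM in both groups. The remaining 20 reached a mean of 1 FPKM in at least 1 group and entered the test. Cyp4f18 entered through the control group alone and Cyp2r1 through the knockout group alone. A total of 16 members were at 1 FPKM or more in each of the 6 libraries.

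Cyp2e1 outweighed the rest of the family. It made up 81.7%, 78.6% and 77.2% of the summed FPKM of all members in controls and 72.0%, 64.5% and 59.6% in knockouts. In the order of all genes by FPKM it stood between place 38 and place 49 in controls and between place 80 and place 159 in knockouts. The next 4 members by mean level were Cyp27a1, Cyp4b1, Cyp2d22 and Cyp2f2, all between 9.17 and 24.5 FPKM in the group means.

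**Figure D1:**
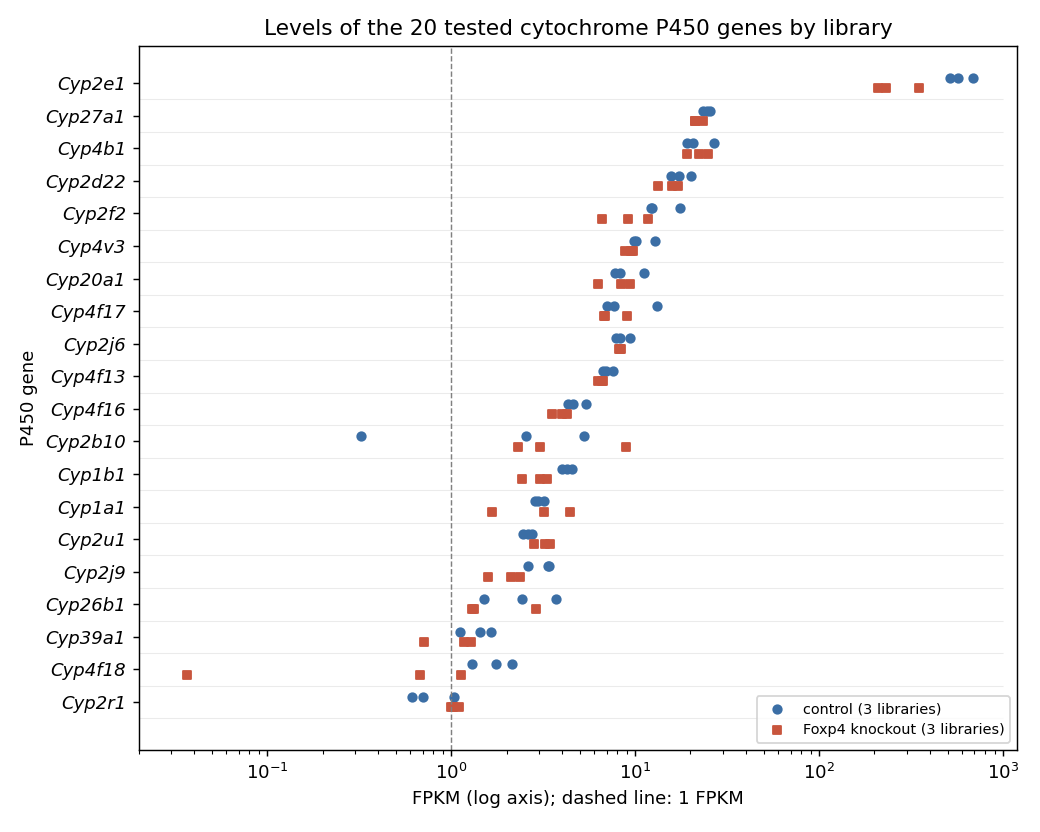
FPKM of the 20 tested P450 genes in each library, on a log axis, with 3 control libraries (circles) and 3 knockout libraries (squares) per gene and a dashed line at 1 FPKM. Cyp2e1 lies far to the right of the other genes, with control libraries from 513 to 688 FPKM and knockout libraries from 210.0 to 351 FPKM.

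Cyp2e1 (chromosome 7, 140763739 to 140774987, plus strand, mm10) was lower in every knockout library. It stood at 688, 569.6 and 513 FPKM in the controls against 351, 232 and 210.0 FPKM in the knockouts. The groups did not overlap, and knockout replicate 1 lay nearest to the controls. The control mean was 590.1 ± 89.3 FPKM and the knockout mean 264 ± 75.6 FPKM (SD, n = 3), a ratio of 2.23. The controls held 17842 to 20914 reads of this gene each and the knockouts 6662 to 11190. On the scale of log2(FPKM + 1) the difference was -1.18 with a 95% interval from -1.67 to -0.69 (SE 0.21). The adjusted p in limma was 0.076, above the threshold of 0.05. Over the 14 other settings and libraries left out, the difference lay between -1.40 and -1.03 and the adjusted p in limma between 0.066 and 0.29. In whole tissue, fewer cells of a type and less RNA per cell cannot be told apart.

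Cyp2e1 was also set against each of the 5 adipocyte markers within each library, as a description with no test. Per FPKM of Plin1, the gene of the lipid droplet protein perilipin, Cyp2e1 stood at 1.35, 1.29 and 1.18 in controls and at 0.780, 0.559 and 0.518 in knockouts. The ratio was thus lower in each knockout than in each control, with a control mean 2.06 times the knockout mean. Adipoq, the adiponectin gene whose promoter drives the Cre, was itself at 1212 ± 69.0 FPKM in the controls against 872 ± 56.9 FPKM in the knockouts (SD, n = 3). Per FPKM of Adipoq, Cyp2e1 stood at 0.535, 0.474 and 0.446 in controls and at 0.375, 0.271 and 0.255 in knockouts, again without overlap. Fabp4, a fatty acid carrier, had 2539 ± 274 FPKM in the controls against 2483 ± 42.1 FPKM in the knockouts (SD, n = 3), and Cyp2e1 per FPKM of Fabp4 was 0.219 to 0.248 in controls and 0.0852 to 0.143 in knockouts. Against the other 2 markers the groups overlapped. Per FPKM of Cfd, the adipocyte protease adipsin, Cyp2e1 stood at 0.119, 0.0860 and 0.0845 in controls and at 0.0872, 0.0651 and 0.0476 in knockouts, so knockout replicate 1 lay above 2 controls. Per FPKM of Lep, the leptin gene, it stood at 3.91, 24.5 and 6.63 in controls and at 3.21, 3.67 and 5.56 in knockouts. Of the 5 adipocyte markers, 2 (Adipoq and Cfd) were lower at an unadjusted p of 0.05, beside 17.1% of all genes tested. The 5 summed to 9971 to 10893 FPKM in the controls against 7436 to 8139 FPKM in the knockouts, sums in which Cfd weighs most. Cfd was at 6162 ± 420 FPKM in the controls against 3999.9 ± 420 FPKM in the knockouts (SD, n = 3). Plin1 was at 462 ± 41.0 FPKM in the controls against 424 ± 23.1 FPKM in the knockouts (SD, n = 3). The groups overlapped in Plin1, Fabp4 and Lep. Of the 5 markers of thermogenic adipocytes 3 were higher at that level, beside 6.98% of all genes tested. Their sums overlapped, at 1215 to 2785 FPKM in controls and 2740.0 to 4260.1 FPKM in knockouts. Their part in the values of Cyp2e1 was not tested.

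The other 98 members together summed to 154.6, 155.4 and 151.8 FPKM in controls and to 136, 128 and 142 FPKM in knockouts. The mean of that sum was 1.14 times higher in controls, against 2.23 times for Cyp2e1 alone. These sums were taken without rescaling the libraries. The median-of-ratios factors were 1.06 for control replicate 3 and 0.95 for knockout replicate 3. Dividing by them puts the sum of knockout replicate 3 above that of control replicate 3.

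**Figure D2:**
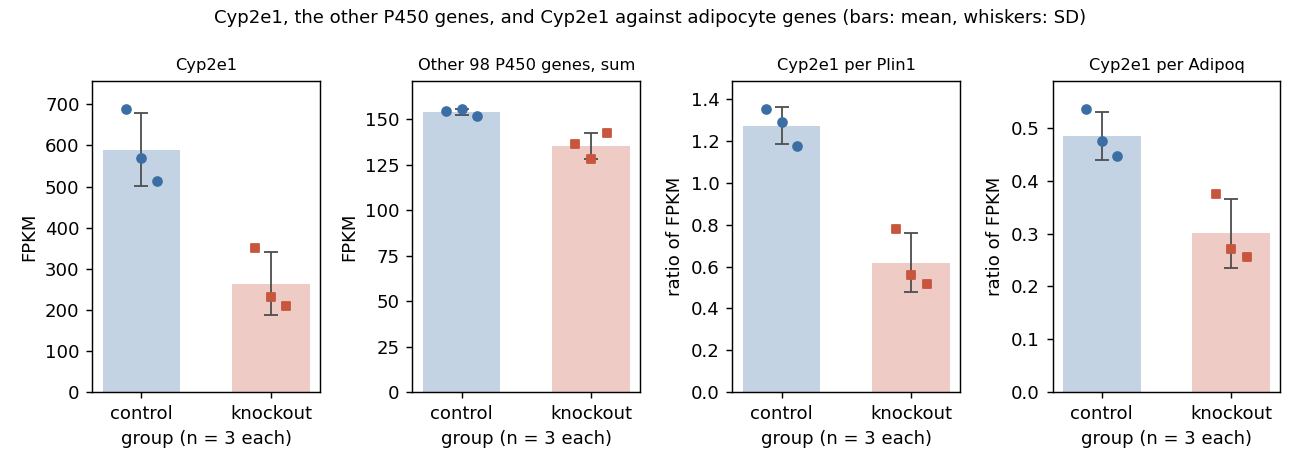
FPKM of Cyp2e1, summed FPKM of the other 98 P450 genes, and the ratio of Cyp2e1 to Plin1 and to Adipoq in each library (points), with group means (bars) and SD (whiskers), n = 3 per group. In all 4 panels the knockout libraries lie below the control libraries, with Cyp2e1 per Plin1 at 1.18 to 1.35 in controls and 0.518 to 0.780 in knockouts. The FPKM are not rescaled between libraries, and the order in the panel of the other 98 genes depends on that.

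None of the 20 tested members passed an adjusted p of 0.05 in limma, where 1 of 10787 genes (0.00927%) did, nor did any with voom on recovered reads. At an unadjusted p of 0.05, 5 members were lower and 0 were higher in knockouts. These were Cyp2e1, Cyp4f18, Cyp2f2, Cyp2j9 and Cyp1b1. Over all genes tested 17.1% were lower and 6.98% higher at that level, the background against which the 5 of 20 are to be read. Cyp4f18 had entered the test through the controls alone, the group where it was higher. With the filter on the mean over all 6 libraries, the same 5 were lower of 19 tested, where the background was 17.0%. The median log2 fold change was -0.20 over the 20 members and -0.08 over all genes tested. After median-of-ratios scaling these medians were -0.12 and -0.02. Unscaled, 17 members were below 0 and 3 above, and the same split over all genes was not counted. Cyp4b1, Cyp1a1 and Cyp2j6 moved from below to above 0 after median-of-ratios or upper-quartile scaling. The groups did not overlap in 9 members that were lower, where the background was 22.7%, and in 1 that was higher, where it was 8.48%. Those counts depend on scaling: after median-of-ratios scaling the 9 became 5 (background 14.4%), and Cyp2j9, Cyp2f2, Cyp27a1 and Cyp4f13 overlapped. That scaling also turned the split of all genes at an unadjusted p of 0.05 from 753 higher and 1848 lower into 1266 higher and 1163 lower. The same 5 members were lower at that level, where the background was 10.8%. After upper-quartile scaling 4 were lower (background 10.5%) and 4 lower without overlap (14.0%). Under each of these scalings Cyp2u1 was the 1 member higher at that level (background 11.7% and 12.0%) and higher without overlap (14.9% and 15.2%).

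**Figure D3:**
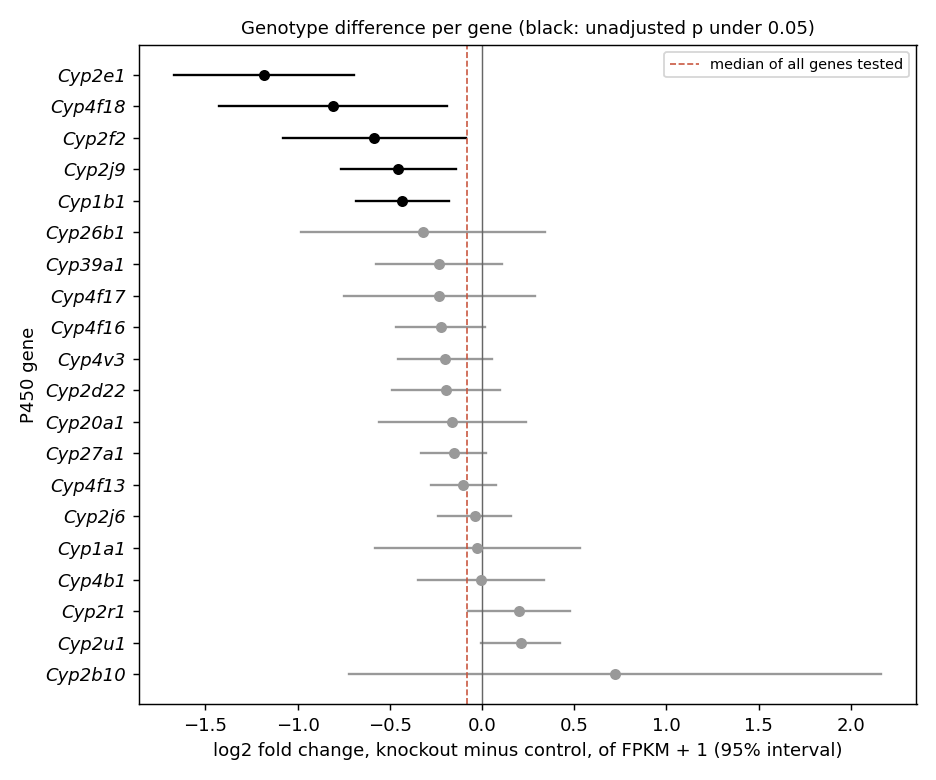
Log2 fold change of FPKM + 1, knockout minus control, with its 95% interval for the 20 tested P450 genes; black marks an unadjusted p under 0.05 and the dashed line is the median of all genes tested. The 5 black genes lie on the lower side, from -1.18 for Cyp2e1 to -0.43 for Cyp1b1, and the interval of Cyp2b10 is the widest.

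For the 3 of these 5 genes whose start region held one of the motifs searched, upstream sequence is shown to place them. RefSeq promoter entries (GRCm38.p6) were found for 76 of the 99 members and 16 of the 20 tested. The 250 bases before each RefSeq start were searched on both strands for TAAACA, a core of forkhead factor sites, for GCGTG, the core of aryl hydrocarbon receptor sites, and for TATAAA, the TATA box. Capitals mark these motifs, and each line runs 5′ to 3′ on the strand of the gene. The longer stretches end where the first GENCODE exon begins, and the 30-base stretches lie between that exon start and the RefSeq start. In Cyp1b1 the motif lies on the other strand and is read as CACGC.
Cyp2e1, chr7:140763569-140763738, plus strand: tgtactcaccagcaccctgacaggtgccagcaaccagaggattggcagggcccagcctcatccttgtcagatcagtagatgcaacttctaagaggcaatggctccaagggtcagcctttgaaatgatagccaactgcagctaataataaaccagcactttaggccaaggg
Cyp2e1 TATA box, chr7:140763776-140763805, plus strand: tcaacgacacgtTATAAAatccttgtttct
Cyp1b1, chr17:79715062-79715311, minus strand: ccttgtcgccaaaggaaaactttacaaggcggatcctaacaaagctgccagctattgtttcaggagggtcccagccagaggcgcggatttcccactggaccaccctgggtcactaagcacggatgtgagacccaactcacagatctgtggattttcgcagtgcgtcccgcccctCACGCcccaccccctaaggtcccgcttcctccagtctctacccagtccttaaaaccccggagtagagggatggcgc
Cyp2j9, chr4:96591579-96591735, minus strand: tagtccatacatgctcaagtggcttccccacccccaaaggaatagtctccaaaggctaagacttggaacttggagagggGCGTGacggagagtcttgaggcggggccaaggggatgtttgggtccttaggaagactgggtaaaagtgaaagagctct
Cyp2j9 forkhead core, chr4:96591526-96591555, minus strand: tagggaagcagaTAAACAaggcgggccaaa

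Of the 16 tested members with an entry, Cyp2j9 alone held TAAACA, which 12.0% of all 32851 promoters held. It lay 58 to 53 bases before the RefSeq start. GCGTG was found in 7 of the 16 members, among them Cyp1b1, Cyp2j9 and Cyp1a1, and in 28.2% of all promoters. TATAAA was found in 3, among them Cyp2e1, where it lay 31 to 26 bases before the RefSeq start, and in 12.4% of all promoters. The windows of Cyp4f18 and Cyp2f2 held none of these letters. Members were counted as genes with a match in any entry, and the background as distinct entries, so these shares differ in unit. A match of this length is a description of the sequence, and no binding was measured.

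Among the enzymes of foreign compounds and steroids, Cyp1b1 (chromosome 17, 79701537 to 79715061, minus strand), which hydroxylates oestradiol and polycyclic hydrocarbons, was lower in every knockout. It stood at 4.27, 4.55 and 4.00 FPKM in the controls against 2.42, 3.31 and 3.04 FPKM in the knockouts, on 209 to 388 reads per library. The groups did not overlap, and the log2 difference was -0.43 (SE 0.11, adjusted p = 0.096 in limma). The difference stayed between -0.56 and -0.34 under the 14 alternatives, with an unadjusted p under 0.05 in each and an adjusted p in limma of 0.083 to 0.29. Of the 6 listed progenitor and fibroblast markers, 4 were lower in knockouts at an unadjusted p of 0.05, beside 17.1% of all genes tested. The 6 summed to 257 to 494 FPKM in the controls against 223 to 262 FPKM in the knockouts, with overlap. Among them Col1a1 was at 199 FPKM in control replicate 3, against 54.1 and 57.8 FPKM in control replicates 1 and 2. The part of these cells in the values of Cyp1b1 was not tested.

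Cyp1a1, the classical target of the aryl hydrocarbon receptor, was not among the lower genes. It was at 2.95, 2.87 and 3.21 FPKM in the controls against 4.44, 1.68 and 3.20 FPKM in the knockouts, so that the knockouts lay on both sides of the controls. The 95% interval of its log2 difference ran from -0.58 to 0.53, and its sign turned with either scaling of the libraries. Cyp1a2, its neighbour in the genome, was listed at 0 in all 6 libraries.

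Cyp2f2 (chromosome 7, 27119909 to 27133660, plus strand), known for the activation of naphthalene in airway club cells, was at 17.6, 12.4 and 12.3 FPKM in controls. In knockouts it was at 9.12, 6.62 and 11.8 FPKM. The highest knockout lay just under the lowest control, and the log2 difference was -0.58 (SE 0.21, adjusted p = 0.16 in limma). The unadjusted p rose above 0.05 without control replicate 1, knockout replicate 1 or knockout replicate 2, with a difference of -0.42, -0.59 and -0.39, and was 0.0514 after upper-quartile scaling. Without knockout replicate 3 the difference was -0.76. The 5 epithelial markers summed to 0.243 to 1.13 FPKM in the controls against 0.122 to 0.462 FPKM in the knockouts, with Krt14 at 0 in every library. Of the exon length of Cyp2f2, 13.5% is shared with Gm15883 on the opposite strand, and the labels do not say whether reads were counted by strand.

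The Cyp2j enzymes make epoxides from arachidonic acid. Cyp2j9 (chromosome 4, 96568429 to 96591578, minus strand) was at 3.40, 3.36 and 2.60 FPKM in the controls against 2.11, 1.58 and 2.36 FPKM in the knockouts, on 70 to 164 reads per library. Every knockout lay below every control, with a log2 difference of -0.45 (SE 0.13, adjusted p = 0.12 in limma) and a range of -0.62 to -0.35 under the alternatives. Its neighbour Cyp2j6 was higher in level and overlapped between groups, at 8.54 ± 0.814 FPKM in the controls against 8.26 ± 0.130 FPKM in the knockouts (SD, n = 3), with a 95% interval of the log2 difference from -0.24 to 0.16 and a sign that turned with either scaling. A difference between the genotype effects of these neighbours was not tested.

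Cyp2u1, a hydroxylase of long-chain fatty acids, was the only tested member with every knockout above every control. It stood at 2.74, 2.45 and 2.62 FPKM in the controls against 3.24, 3.46 and 2.82 FPKM in the knockouts. The log2 difference was 0.21 (SE 0.09, unadjusted p = 0.0522, adjusted p = 0.21 in limma), just outside the level used here for single members. After median-of-ratios scaling its unadjusted p was 0.0157 and after upper-quartile scaling 0.0147. Of its exon length, 10.5% is shared with 4930534D22Rik on the opposite strand.

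Cyp2d22, the mouse relative of the human drug-metabolising gene CYP2D6, was at 17.8 ± 2.26 FPKM in the controls against 15.4 ± 1.95 FPKM in the knockouts (SD, n = 3), with overlapping groups. Cyp2b10, which the xenobiotic receptor Nr1i3 induces in liver, varied widely within both groups. It was at 5.28, 2.56 and 0.323 FPKM in the controls against 3.04, 2.32 and 8.88 FPKM in the knockouts, a range of 11 to 284 reads per library. Its log2 difference of 0.72 had a 95% interval from -0.72 to 2.16, and was 0.11 without control replicate 3 and 0.24 without knockout replicate 3. Nr1i3 itself was listed at 0 in all 6 libraries. Of the 50-base words in Cyp2b10 transcripts, 8.7% also occur in other genes, most often Cyp2b13, so its values are uncertain.

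The Cyp4 enzymes oxidise the far end of fatty acids and eicosanoids. Cyp4b1, the most abundant of them here, was at 20.7, 19.3 and 27.0 FPKM in the controls against 22.2, 24.8 and 19.2 FPKM in the knockouts. The groups overlapped widely, with a 95% interval of the log2 difference from -0.35 to 0.33 and a sign that turned with either scaling of the libraries. Of its 50-base words, 8.26% also occur in other genes, most often Cyp4b1-ps2. Cyp4v3, a fatty acid hydroxylase, was at 10.9 ± 1.61 FPKM in the controls against 9.35 ± 0.483 FPKM in the knockouts (SD, n = 3), and every knockout was just below every control, with an unadjusted p of 0.108 in limma. Of its exon length, 8.22% is shared with Gm45753 on the same strand, itself listed at 0 FPKM. Of its 50-base words, 7.02% also occur in other genes, most often Gm45753.

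Of the Cyp4f genes, whose products inactivate leukotrienes, 4 were tested. Cyp4f18 (chromosome 8, 71988482 to 72009626, minus strand), known from neutrophils, was at 1.76, 2.14 and 1.304 FPKM in the controls against 0.0365, 1.14 and 0.677 FPKM in the knockouts. These values are few reads: 46, 58 and 39 in controls and 1, 28 and 19 in knockouts, so knockout replicate 1 was nearly empty of this transcript. The log2 difference was -0.81 (SE 0.26, adjusted p = 0.14 in limma), for a gene that passed the filter through the controls alone. It was -0.52 without knockout replicate 1, and -1.83 with a pseudocount of 0.1 in place of 1. Without control replicate 2 its unadjusted p was 0.0583. With voom on recovered reads the difference was -2.31. Of its exon length, 9.76% is shared with Zfp961 on the opposite strand.

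Leukocyte markers were read in the same libraries. All 6 macrophage markers were lower in knockouts at an unadjusted p of 0.05, where 17.1% of all genes tested were lower. The 6 summed to 428 to 560 FPKM in the controls against 260 to 349 FPKM in the knockouts. Of 3 tested neutrophil markers, 1 (Csf3r) was lower at that level, beside the same share. The marker lists were not counted again after median-of-ratios scaling, where 10.8% of all genes were lower and 11.7% higher. The 4 neutrophil markers summed to 3.95 to 29.5 FPKM in the controls against 4.49 to 13.3 FPKM in the knockouts, with overlap. Of these, Ly6g was at 0 in all knockouts and in control replicate 3, and had only 1 and 3 reads in control replicates 1 and 2. The 6 lymphocyte markers summed to 1.64 to 2.25 FPKM in the controls against 0.767 to 2.24 FPKM in the knockouts, with overlap, and the 1 tested was not called. The part of these cells in the values of Cyp4f18 was not tested.

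The other Cyp4f genes lie close together on chromosome 17, and with all 6 libraries and no block none was lower at an unadjusted p of 0.05. Cyp4f13 was at 7.07 ± 0.437 and 6.52 ± 0.177 FPKM, Cyp4f16 at 4.77 ± 0.551 and 3.94 ± 0.375 FPKM, and Cyp4f17 at 9.32 ± 3.35 and 7.58 ± 1.31 FPKM in controls and knockouts (SD, n = 3). The knockouts of Cyp4f13 and Cyp4f16 lay below the controls without overlap, with an unadjusted p of 0.221 and 0.0621 in limma. For Cyp4f16 that p was 0.0443 with the replicate block and 0.0404 without control replicate 2. Cyp4f17 was set apart by control replicate 2, at 13.2 FPKM, without which its log2 difference of -0.23 became 0.02. Cyp4f16 shares 17.4% of its 50-base words with other genes, most often Cyp4f37, so its level is uncertain.

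Enzymes of bile acids and oxysterols were led by Cyp27a1, the mitochondrial sterol hydroxylase. Cyp27a1 had 24.5, 23.5 and 25.4 FPKM in the controls against 21.3, 23.3 and 21.1 FPKM in the knockouts. The highest knockout was just below the lowest control, and the difference of -0.15 (95% interval -0.33 to 0.02) had an unadjusted p of 0.0812 in limma. Cyp39a1, which hydroxylates oxysterols, was at 1.40 ± 0.267 and 1.06 ± 0.299 FPKM in controls and knockouts (SD, n = 3), with overlap. Cyp46a1, Cyp7b1 and Cyp8b1 were at or below 0.437 FPKM in every library, and Cyp7a1, which starts bile acid synthesis in liver, was listed at 0 throughout.

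Genes of steroid hormone synthesis were almost silent. None of the 6 was tested, and 4 of them, aromatase (Cyp19a1) among them, were listed at 0 in all libraries. For Cyp19a1 a count of 0 allows up to 0.0412 to 0.04996 FPKM per library, taking 3 reads as the limit. Cyp11a1, which cleaves the side chain of cholesterol, had 15 to 34 reads in each control and 10 to 14 in each knockout, or 0.214 to 0.439 FPKM and 0.157 to 0.193 FPKM. Cyp17a1 had at most 5 reads in any library.

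Of the vitamin enzymes, Cyp26b1, which breaks down retinoic acid, was at 2.43, 3.71 and 1.51 FPKM in the controls against 1.34, 1.29 and 2.89 FPKM in the knockouts, with wide overlap. Cyp26a1 and Cyp26c1, its relatives, had at most 3 reads in any library. Cyp2r1, which hydroxylates vitamin D in its first activating step, was at 0.705, 1.04 and 0.616 FPKM in the controls against 1.02, 1.104 and 0.9996 FPKM in the knockouts, on 21 to 32 reads per library. Control replicate 2 lay within the knockouts, and the log2 difference was 0.20 (SE 0.12). Without control replicate 2 it was 0.30, with an unadjusted p of 0.0342. Cyp24a1, which inactivates vitamin D, was listed at 0. Cyp20a1, an enzyme without a settled substrate, was at 9.09 ± 1.80 and 8.04 ± 1.601 FPKM in controls and knockouts (SD, n = 3).

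Many of the members at 0 lie in gene clusters. When members less than 1 megabase apart were joined, 76 of the 99 fell into 10 clusters, and 10 of these 76 were tested, against 10 of the 23 outside. In the Cyp2c cluster on chromosome 19, 13 of 14 members were listed at 0, and in the Cyp3a cluster on chromosome 5, 7 of 8. All 4 Cyp2a genes and 5 of 8 Cyp4a genes, which are prominent in liver, were at 0 as well. Single members stood out of otherwise quiet clusters: Cyp4b1 was the only tested gene among 10 on chromosome 4, and Cyp2d22 the only one among 8 on chromosome 15. On chromosome 7, Cyp2b10 and Cyp2f2 were tested of 13 members, 7 of which were at 0. For the 51 members at 0, a count of 0 allows up to 0.0365 to 0.149 FPKM per library, depending on gene length and depth and for counting error only. Members at 0, and Cyp46a1, Cyp17a1, Cyp26a1 and Cyp26c1, were chosen for naming after their values were seen.

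Among the 28 members with some reads below the filter, the highest mean over all libraries was 0.304 FPKM, and 13 had 10 reads or fewer in the 6 libraries together. The 6 highest were Cyp2ab1, Cyp8b1, Cyp7b1, Cyp2c23, Cyp11a1 and Cyp4f39. Cyp8b1, which sets the kind of bile acid made in liver, had 12, 9 and 11 reads in controls and 3, 6 and 9 in knockouts. When the filter was dropped, 48 members entered and 3 of the added ones were lower at an unadjusted p of 0.05, beside 1 that was higher, where the background of that fit was 12.7% and 5.0%. The added members called were Cyp8b1, Cyp4a32 and Cyp27b1 on the lower side and Cyp2c70 on the higher, named after their values were seen. In that fit 13 of the 48 members were lower without overlap (background 17.7%) and 2 higher (6.26%). Cyp2c70, a bile acid hydroxylase of rodent liver, had 2, 5 and 5 reads in controls and 8, 10 and 8 in knockouts.

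The electron donors of P450 enzymes went both ways. Of 32 genes listed as partners, regulators and P450 genes outside the naming rule, 31 were in the table and 23 were tested. None passed an adjusted p of 0.05 in limma, while an unadjusted p of 0.05 was met by 5 lower and 4 higher genes of the 23, beside 17.1% lower and 6.98% higher over all genes tested, with a median log2 fold change of -0.08. Por, which feeds all P450 enzymes of the endoplasmic reticulum, was at 143, 113 and 118 FPKM in the controls against 103, 86.9 and 97.6 FPKM in the knockouts, without overlap. Its log2 difference was -0.37 (SE 0.12, adjusted p = 0.14 in limma), and its unadjusted p was 0.0626 without knockout replicate 2. Cyb5a, the cytochrome b5 of the endoplasmic reticulum, named like Fdxr, Ahr and Nr1i3 after its values were seen, was at 92.7, 73.9 and 73.9 FPKM in the controls against 63.0, 60.4 and 70.7 FPKM in the knockouts. Every knockout lay below every control, with a difference of -0.30 and an unadjusted p of 0.0360. That p was above 0.05 in 6 of 14 alternatives, among them median-of-ratios scaling (0.113), upper-quartile scaling (0.128), the replicate block (0.0518) and without knockout replicate 1 (0.0953) or 2 (0.116). Without control replicate 1 the difference was -0.19 (unadjusted p = 0.0904).

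Both mitochondrial donors with an unadjusted p under 0.05 were higher instead. Cyb5b, the cytochrome b5 of the outer mitochondrial membrane, was at 149, 172 and 139.9 FPKM in the controls against 223, 207 and 214 FPKM in the knockouts. The log2 difference of 0.48 (SE 0.10) had an adjusted p of 0.082 in limma. Fdx1, the ferredoxin of mitochondrial P450 enzymes, was at 18.6, 17.8 and 18.5 FPKM in the controls against 22.9, 25.4 and 21.5 FPKM in the knockouts, with a difference of 0.33 (SE 0.08, adjusted p = 0.099 in limma). Every knockout exceeded every control in both genes. Its reductase Fdxr was at 4.80 ± 1.09 and 4.39 ± 0.564 FPKM in controls and knockouts (SD, n = 3), with overlap. The 5 thermogenic markers are given beside Cyp2e1, 3 of them higher, where 6.98% of all genes tested were. Their part in the values of Cyb5b and Fdx1 was not tested.

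**Figure D4:**
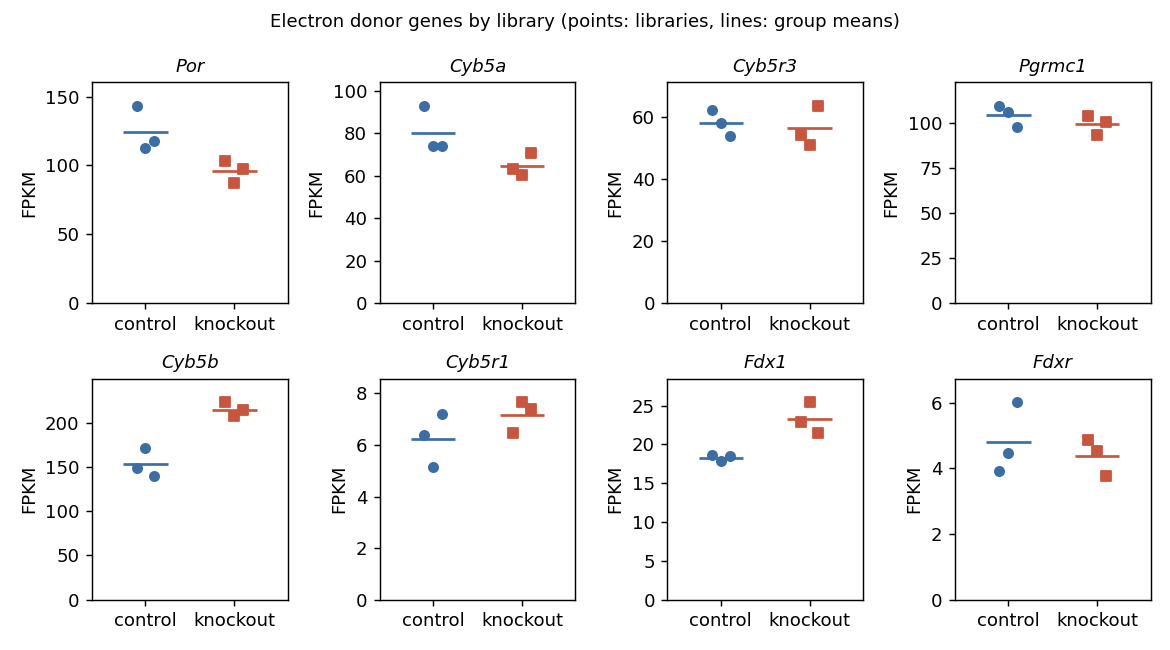
FPKM of 8 genes listed as electron donors in each library (points) with group means (lines), 3 control and 3 knockout libraries, on axes from 0. Pgrmc1, in the same list, is a partner of P450 enzymes and not itself a donor. Por and Cyb5a lie lower in all knockouts, Cyb5b and Fdx1 higher in all knockouts, and the groups of the other 4 overlap.

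Of the transcription factors, Arnt, the partner of the aryl hydrocarbon receptor, was at 9.17, 9.11 and 9.47 FPKM in the controls against 7.74, 7.42 and 7.18 FPKM in the knockouts. Nr1h2, a receptor of oxysterols, was at 22.9, 23.4 and 23.9 FPKM in the controls against 17.2, 19.5 and 18.3 FPKM in the knockouts. Both had little spread within groups and log2 differences of -0.28 and -0.34, with adjusted p of 0.096 and 0.085 in limma. Rarg, a retinoic acid receptor, was lower as well (-0.55, adjusted p = 0.13 in limma), while Ppara, which drives Cyp4a genes in liver, was higher (0.59, adjusted p = 0.16 in limma). Without control replicate 1 the difference of Ppara was 0.34, and its unadjusted p was 0.088 without knockout replicate 2 and 0.0551 without knockout replicate 3. The receptor Ahr itself was at 1.48 ± 0.415 and 1.19 ± 0.121 FPKM in controls and knockouts (SD, n = 3). Cyp51, the P450 enzyme of cholesterol synthesis, was at 10.1, 13.3 and 12.4 FPKM in the controls against 18.4, 17.3 and 23.6 FPKM in the knockouts, opposite in direction to the 5 members that were lower.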

How the data were processed

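RNA from inguinal fat was sequenced as 6 stranded mRNA libraries. Per the labels and the submitters' processing notes, the authors used cutadapt, HISAT2, HTSeq and mm10. These sources name no version, annotation or strand setting for the counting. The deposited values are FPKM in 21936 rows, of which 36 repeat a symbol and were left out, keeping the row with the higher mean. FPKM multiplied by GENCODE M21 exon length gave whole reads (within 0.05) for 97.9% to 98.1% of values of up to 50 reads.

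Genes that averaged 1 FPKM or more in the controls or in the knockouts were tested with limma 3.58.1 (R 4.3.3, with a trend) on log2(FPKM + 1), which understates changes of low genes. P-values were Benjamini-Hochberg adjusted over 10787 genes, with a threshold of 0.05. The fit was also run on simulated data, in which genes were independent and a subset changed in either direction. The simulation held no shift shared by most genes, so it does not test the fit under one. An exact permutation test of 3 against 3 cannot go below 0.10. No 2 libraries agreed within sampling noise. All tested members, the 6 highest below the filter and the 8 partner genes with the smallest p were to be named. The members and lists were chosen with earlier results of these data known. Alternatives were the pseudocount, filter, scaling, trend, replicate block, leaving out each library and, chosen after seeing the data, voom.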

Additional observations from a re-analysis of the deposited data

How the results depend on the processing

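No member passed an adjusted p of 0.05 in limma under any of the 14 alternatives. Without a filter 48 members were tested, and the 5 lower at an unadjusted p of 0.05 became 8 (12.7% of all genes). They became 6 with the replicate block, which added Cyp4f16 (14.6% of all genes were lower in that fit). In limma without a trend 5 were lower and 1 higher (17.3% and 6.87% of all genes). Also, 1 member was higher without a filter (5.0%), after median-of-ratios scaling (11.7%) and after upper-quartile scaling (12.0%). Members lower without overlap between groups were 5 after median-of-ratios scaling (14.4% of all genes) and 4 after upper-quartile scaling (14.0%). When no filter was used, 2 were higher without overlap (6.26%). Leaving out 1 library at a time gave 4 to 5 lower, 0 to 1 higher, 9 to 11 lower without overlap and 1 to 2 higher without overlap, where 10.2% to 19.0%, 3.73% to 8.33%, 26.9% to 34.8% and 9.89% to 14.9% of all genes were so called. Partner and regulator genes were 3 to 6 lower and 3 to 5 higher, beside the same 10.2% to 19.0% and 3.73% to 8.33%. The sign turned for Cyp4b1 (0.0687 after median-of-ratios and 0.0728 after upper-quartile scaling, -0.1009 to 0.1318 with 1 library left out), Cyp1a1 (0.0334 and 0.037 after these scalings, -0.258 to 0.254), Cyp2j6 (0.0316 and 0.0352, -0.0912 to 0.0278) and Cyp4f17 (-0.3847 to 0.0217 with 1 library left out); the cause was not tested. No pairing by replicate number was evident over all genes tested, where deviations of same-numbered libraries correlated at 0.065, 0.027 and -0.254. The labels do not say what a number marks, and these correlations cannot show that the samples were unpaired. With the replicate block the SE of Cyp2e1 was 0.11, against 0.21 without it. Voom on recovered reads, added after seeing the data, gave 5 lower and 0 higher (17.4% and 6.69% of all genes). Members with few reads, such as Cyp4f18 and Cyp2r1, are limited by depth.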
